A study of Mus musculus with 8 samples.

Results

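The small proline-rich and cornification genes followed here are 9 rows of a table of 16119 genes: Sprr1a, Sprr1b, Sprr2e, Sprr2f, Sprr2g, Sprr3, Ivl, Tgm1 and Cnfn, which the table lists in capitals (SPRR1A, SPRR1B, SPRR2E, SPRR2F, SPRR2G, SPRR3, IVL, TGM1, CNFN). They were chosen by name with their high levels in thyroid follicular cell organoids (TFCOs) relative to thyroid tissue already known, so every difference between TFCOs and a tissue in these 9 genes is given as a description, without a test. The choice did not use passage, and the comparison of late with early TFCOs was tested. RNA was sequenced in 8 libraries from wild type C57BL/6 mice, 2 in each of 4 groups: early passage TFCOs, late passage TFCOs, thyroid tissue and lung tissue. TFCOs are epithelial structures grown in basement membrane extract from minced and digested mouse thyroid, with the cells of a single thyroid plated per culture, and the methods state that the mice were female. Both passages were sequenced for each of the lines mThy14 and mThy16, so a TFCO group holds 1 library of each of 2 lines, and early and late libraries of a line are not independent animals. All TFCOs were expanded in AdDMEM/F12 with B27, N-acetylcysteine, nicotinamide, R-spondin 3, the TGFβ receptor inhibitor A83-01, the adenylyl cyclase activator forskolin, EGF and FGF10. No further treatment of these TFCOs is named in the sources used here. The age of the mice and the number of animals behind each tissue library are not given in the sources used here. Tissue libraries hold all cell types of the dissected piece, and in such bulk RNA fewer cells of a type and less RNA per cell cannot be told apart.

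Cornification is the last step in the life of a stratified squamous epithelium such as epidermis, oesophagus or forestomach. The cell builds a tough protein shell, the cornified envelope, under its membrane: involucrin (Ivl) is an early scaffold protein, small proline-rich proteins (Sprr) act as cross-bridges, cornifelin (Cnfn) is another envelope component, and transglutaminase 1 (Tgm1) is the membrane-bound enzyme that links these proteins by isopeptide bonds. Most of the genes lie together in the epidermal differentiation complex, and several respond to injury and stress in other epithelia. Thyroid follicles are a simple, hormone-producing epithelium and do not normally build such an envelope.

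In the mouse annotation GENCODE M21 (GRCm38), 7 of the 9 genes lie on chromosome 3. Sprr2e, Sprr2f and Sprr2g follow each other on the plus strand at chr3:92352143-92353449, chr3:92365187-92366442 and chr3:92373915-92375229. Sprr1b (chr3:92436809-92438789), Sprr3 (chr3:92456502-92458720), Sprr1a (chr3:92483952-92485895) and Ivl (chr3:92570902-92573735) lie further along on the minus strand. Cnfn is on chromosome 7 (chr7:25367620-25369724) and Tgm1 on chromosome 14 (chr14:55700009-55713926), both on the minus strand. Sprr2g is annotated as a polymorphic pseudogene and the other 8 genes as protein coding.

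The Sprr2 genes are close copies, which bears both on their counting and on what precedes them. Of the 50-base stretches of the annotated exons, 10.2% in Sprr2e also occurred in another gene (Sprr2i, Sprr2d or Sprr2f), against 0.714% in Sprr2f and 0% in Sprr2g, Sprr1a, Sprr1b, Sprr3, Cnfn and Tgm1. The likeness extended before the start sites. The 180 bases from 200 to 21 bases before the annotated start (RefSeq sequences on GRCm38.p6) are shown for the 2 Sprr2 members whose promoter was listed, and for Sprr1a, Sprr1b and Ivl, to set abundant Sprr2 genes beside weakly detected members. Tgm1, also abundant, is not printed, and none of the searched motifs was found before its listed starts. Capitals mark 3 searched motifs, an AP-1 site (TGANTCA), an octamer (ATTTGCAT) and a TATA box (TATAAA). The AP-1 motif is its own reverse complement, and no matches overlapped. AP-1 factors and TATA-driven starts are textbook features of cornification genes.
Sprr2e, plus strand, chr3:92351943-92352122: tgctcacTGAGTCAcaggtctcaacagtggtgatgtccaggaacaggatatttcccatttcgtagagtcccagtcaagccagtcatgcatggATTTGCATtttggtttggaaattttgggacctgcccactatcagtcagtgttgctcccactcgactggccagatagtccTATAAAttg
Sprr2f, plus strand, chr3:92364987-92365166: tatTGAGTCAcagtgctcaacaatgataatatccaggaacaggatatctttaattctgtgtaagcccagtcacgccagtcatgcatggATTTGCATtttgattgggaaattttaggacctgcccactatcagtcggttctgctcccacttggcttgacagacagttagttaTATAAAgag
Sprr1a, minus strand, chr3:92485902-92486081: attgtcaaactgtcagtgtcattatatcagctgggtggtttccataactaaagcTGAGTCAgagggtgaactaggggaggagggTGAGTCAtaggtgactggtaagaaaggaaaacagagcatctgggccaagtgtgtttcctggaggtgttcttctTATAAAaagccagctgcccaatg
Sprr1b, minus strand, chr3:92438800-92438979: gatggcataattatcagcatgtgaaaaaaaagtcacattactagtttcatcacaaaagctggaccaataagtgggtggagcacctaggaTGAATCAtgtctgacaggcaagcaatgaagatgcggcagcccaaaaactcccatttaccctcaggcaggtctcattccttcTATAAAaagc
Ivl, minus strand, chr3:92573756-92573935: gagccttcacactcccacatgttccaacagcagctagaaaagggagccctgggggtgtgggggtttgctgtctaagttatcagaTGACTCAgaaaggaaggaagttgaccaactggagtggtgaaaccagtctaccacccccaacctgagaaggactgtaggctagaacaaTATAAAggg

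The printed stretches of Sprr2e and Sprr2f were identical at 78.7% of aligned bases, and those of Sprr1a and Sprr1b at 54.5%. In the 250 bases before the start, searched on both strands, an AP-1 match was found in 5 of the 8 members with a listed sequence (Sprr2e, Sprr2f, Sprr1a, Sprr1b and Ivl), against 6.75% of 32851 mouse promoters. The octamer was found in Sprr2e and Sprr2f, and in all 7 of the Sprr2 promoters listed, against 1.60% of all promoters. These 7 promoters are copies of each other and not independent cases. TATAAA was found in 6 of 8 members (12.4% of all promoters). The GC-rich motif CCCACCC, a binding sequence of KLF factors, was found in 0 of 8 members (15.8% of all promoters). It was found in 2 of the 7 Sprr2 promoters listed. In Sprr2e the AP-1 match began 193 bases, the octamer 108 bases and the TATA box 29 bases before the start, and in Sprr2f they began 197, 112 and 29 bases before it. A match is a string of letters in a window, and no binding was measured.

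**Figure D1:**
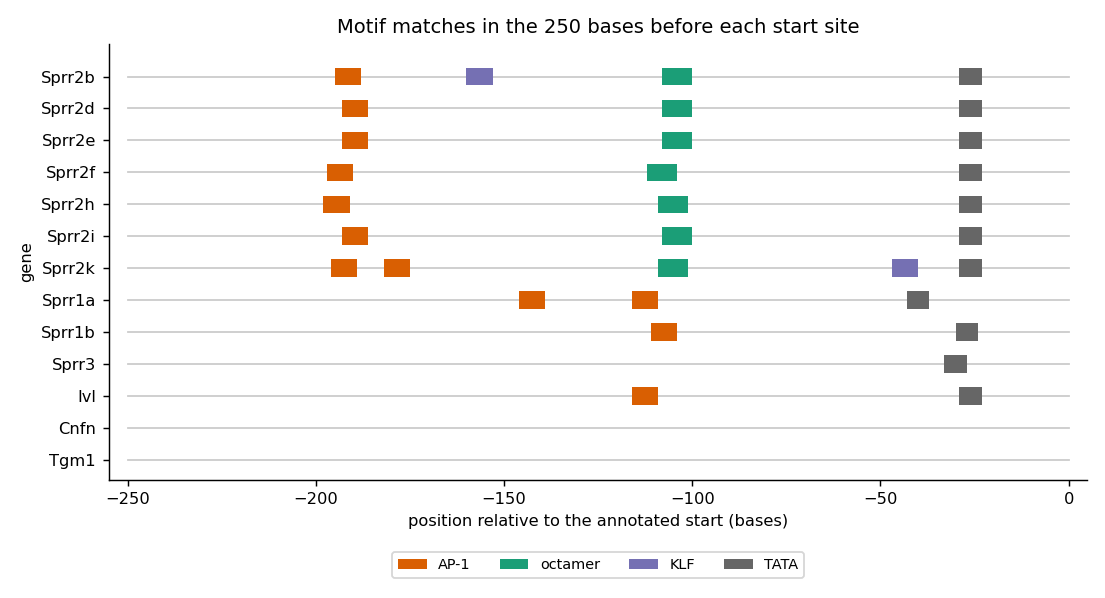
Motif matches in the 250 bases before the annotated start of 13 genes, with position in bases on the horizontal axis and 1 line per gene (the first of 2 listed starts for Tgm1). All 7 Sprr2 promoters carry an AP-1 match, an octamer and a TATA box in the same order, whereas Sprr1a, Sprr1b and Ivl carry AP-1 and TATA matches without the octamer.

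Values are normalized counts: reads per gene divided by 1 size factor per library. Gene reads ranged from 9755081 to 16904865 per library, and 1 read was worth between 0.674 and 1.41 normalized counts. The 8 libraries were split into 2 sets that cut across the groups, TFCOs with thyroid tissue 1 and thyroid tissue 2 with lung. In thyroid tissue 2 and both lung tissues, 44 genes were listed at 0 that stood at 50 or more in all TFCOs and in thyroid tissue 1, and 16 genes showed the reverse. Only this split was counted, and the squamous keratins Krt13, Krt6a and Krt6b are among the 44 genes. Whether the sets differ in processing or in the cells of the tissues was not tested. TFCOs are therefore also set against thyroid tissue 1 alone. Where TFCOs are set against lung, tissue and library set cannot be told apart. Which gene models the reads were counted on is not given in the sources used here; the processing notes name both a mouse and a human build. The 10 Ivl and Sprr rows stand in the table in the order Ivl, Sprr4, Sprr1a, Sprr3, Sprr1b, Sprr2d, Sprr2b, Sprr2e, Sprr2f and Sprr2g, whereas on mouse chromosome 3 the Sprr2 genes come first, beginning with Sprr2b and Sprr2d, and are followed by Sprr1b, Sprr3, Sprr1a, Sprr4 and Ivl. Only the mouse order was compared. This leaves unsettled, for every row and library, which gene models its reads were assigned to. Positions, exon lengths and sequences given here are those of the mouse genes of the same symbol, and a 0 is given as listed. Levels per kilobase, shared stretches and promoters therefore apply to a row only if it was counted on that mouse gene.

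Transcripts for the cross-linking enzyme and for 3 Sprr2 genes were abundant in all TFCOs, and the other 5 members were near the detection limit or weakly detected. Every TFCO library exceeded both thyroid tissues in 6 of the 9 members (Sprr1a, Sprr1b, Sprr2e, Sprr2f, Sprr2g and Tgm1). This pattern was met by 17.2% of the 14703 genes tested, and it belongs to the contrast on which the members were chosen. Every TFCO library exceeded both lung tissues in 8 of 9 members, against 34.4% of genes tested.

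Tgm1 had the highest normalized counts of the group. It was read at 6399 in early and 898 in late TFCOs of mThy14, at 2118 in early and 1905 in late TFCOs of mThy16, at 463 and 313 in thyroid tissues 1 and 2, and at 58.6 and 31.0 in lung tissues 1 and 2. All 4 TFCO libraries lay above thyroid tissue, and both thyroid tissues above lung. The lowest TFCO library held 1.94 times and the highest 13.8 times the value of thyroid tissue 1. On the log2(value + 1) scale, the mean of the 2 lines exceeded thyroid tissue 1 by 2.24 and thyroid tissue 2 by 2.80.

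Sprr2e encodes one of the small cross-bridging proteins. Its values were 1404 and 375 in early and late mThy14 and 971 and 596 in early and late mThy16, against 10.9 in thyroid tissue 1 and 0 in thyroid tissue 2 and both lungs. The groups did not overlap, and the lowest TFCO library held 34.4 times the value of thyroid tissue 1. Sprr2f was read at 710 and 131 in early and late mThy14 and at 456 and 314 in early and late mThy16. Thyroid tissue 1 held 1.09, a single read, and the other 3 tissue libraries held 0. Sprr2g was read at 1077 and 186 in mThy14 and at 516 and 476 in mThy16, and it was listed at 0 in all 4 tissue libraries. Against a floor of 3 reads in thyroid tissue 1 (3.27 normalized counts), the lowest TFCO library was at least 57.0-fold higher for Sprr2g, a floor that covers counting error only. Sprr2g shared no 50-base stretch with another gene, counted on the mouse exons of GENCODE M21.

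Sprr1a and Sprr1b, the members best known from epidermis and injured epithelia, were detected at a far lower level. Sprr1a stood at 30.9 and 32.3 in early and late mThy14 and at 40.6 and 39.1 in early and late mThy16. Both thyroid tissues held 0, lung tissue 1 held 18.4 from 22 reads and lung tissue 2 held 0, so the 2 lung tissues differed from each other. The lowest TFCO library was at least 9.47-fold above the 3-read floor of thyroid tissue 1. Sprr1b stood at 14.1 and 17.7 in mThy14 and at 37.6 and 22.4 in mThy16, with 0 in all 4 tissue libraries, and its lowest TFCO library was at least 4.3-fold above that floor. Both genes were higher in mThy16 than in mThy14 at each passage.

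The remaining members did not separate TFCOs from thyroid tissue 1. Ivl was read at 50.6 and 23.9 in early and late mThy14, at 9.90 and 11.2 in mThy16, at 13.1 and 6.45 in the thyroid tissues and at 3.35 and 5.39 in the lungs. Thyroid tissue 1 thus lay between the 2 lines. Cnfn was read at 16.9 and 9.37 in mThy14, 14.9 and 12.3 in mThy16, 15.2 and 2.77 in the thyroid tissues and 0 in both lungs, so only early mThy14 exceeded thyroid tissue 1. Sprr3, a gene of oesophageal epithelium, was at 11.2 and 0 in mThy14, 0.990 and 6.71 in mThy16, 1.09 in thyroid tissue 1 and 0 elsewhere. No library held more than 8 reads of it, and it did not reach 10 normalized counts in 2 libraries, so that 8 of the 9 members were tested.

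**Figure D2:**
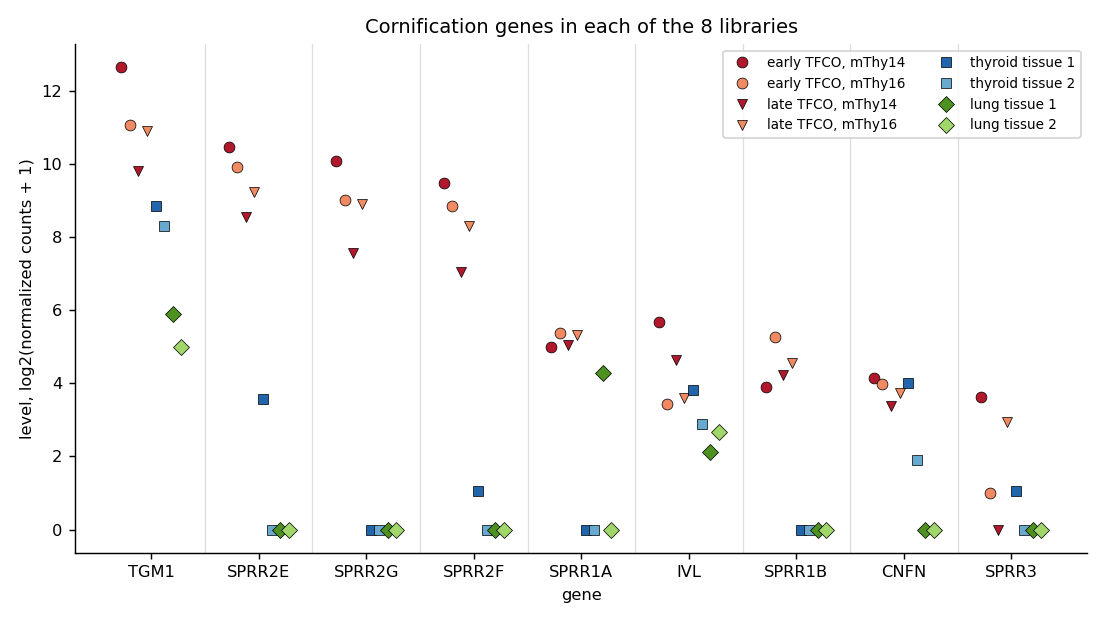
Levels of the 9 genes in each library on the log2(normalized counts + 1) axis, with TFCOs in red, thyroid tissue in blue and lung tissue in green. Tgm1, Sprr2e, Sprr2g and Sprr2f form a high group in which every TFCO point lies above every tissue point, while Ivl and Cnfn of thyroid tissue 1 lie among the TFCO points.

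Per kilobase of annotated exon, which allows levels of different genes to be compared if reads cover whole transcripts, early TFCOs held 1836 ± 473 normalized counts of Sprr2e (SD, n = 2 lines), 1347 ± 957 of Tgm1, 1223 ± 609 of Sprr2g and 957 ± 295 of Sprr2f. Neighbours in this order did not differ beyond their spread. Sprr1a followed at 44.4 ± 8.49, Sprr1b at 31.1 ± 20.1, Cnfn at 22.1 ± 1.98, Ivl at 15.7 ± 15.0 and Sprr3 at 5.01 ± 5.93. The step from Sprr2f to Sprr1a was larger than the spread of either, and each of the 5 lower levels overlapped the next within 1 SD. In late TFCOs the same 4 genes led, with 750 ± 242 for Sprr2e, 509 ± 315 for Sprr2g, 443 ± 225 for Tgm1 and 366 ± 212 for Sprr2f. The labels describe a CEL-Seq protocol, which counts transcript ends, and the methods a polyA kit, which covers whole transcripts. Under end counting the unscaled values are the ones to compare, and Tgm1 then stands above the Sprr2 genes in all 4 TFCO libraries.

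The table holds 3 further Sprr rows, and 2 of them, Sprr2b and Sprr2d, shared the pattern of the Sprr2 members. The mouse annotation names 17 Sprr genes, whereas the table holds 9 Sprr rows. Sprr2a1, Sprr2a2, Sprr2a3, Sprr2h, Sprr2i and Sprr2k have no row under these symbols, so the Sprr2 rows are not the whole family. Sprr2b was read at 780 and 158 in early and late mThy14 and at 375 and 314 in mThy16, and Sprr2d at 641 and 122 and at 298 and 305. Thyroid tissue 1 held 17.4 and 13.1 of them, and thyroid tissue 2 and the lungs held 0. Since the Sprr2 genes share exon sequence, their 5 rows were also summed, which does not depend on how reads were divided between these rows. The sum can still depend on reads shared with Sprr2 genes that have no row. In Sprr2b, 14.1% of the 50-base stretches also occurred in Sprr2a1, Sprr2a2 or Sprr2a3. Most of the stretches that Sprr2e shared occurred in Sprr2i. The sum was 4612 and 972 in early and late mThy14 and 2616 and 2005 in early and late mThy16, against 42.5 (39 reads) in thyroid tissue 1 and 0 in the other 3 tissue libraries. The makeup of the sum varied little. Sprr2e took between 29.7% and 38.5% of it in the 4 TFCO libraries, Sprr2g between 19.2% and 23.7%, Sprr2f between 13.5% and 17.4%, Sprr2b between 14.3% and 16.9%, and Sprr2d between 11.4% and 15.2%. Sprr4 stood apart from them with 0 and 28.1 in early and late mThy14 and 35.7 and 10.1 in mThy16.

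**Figure D3:**
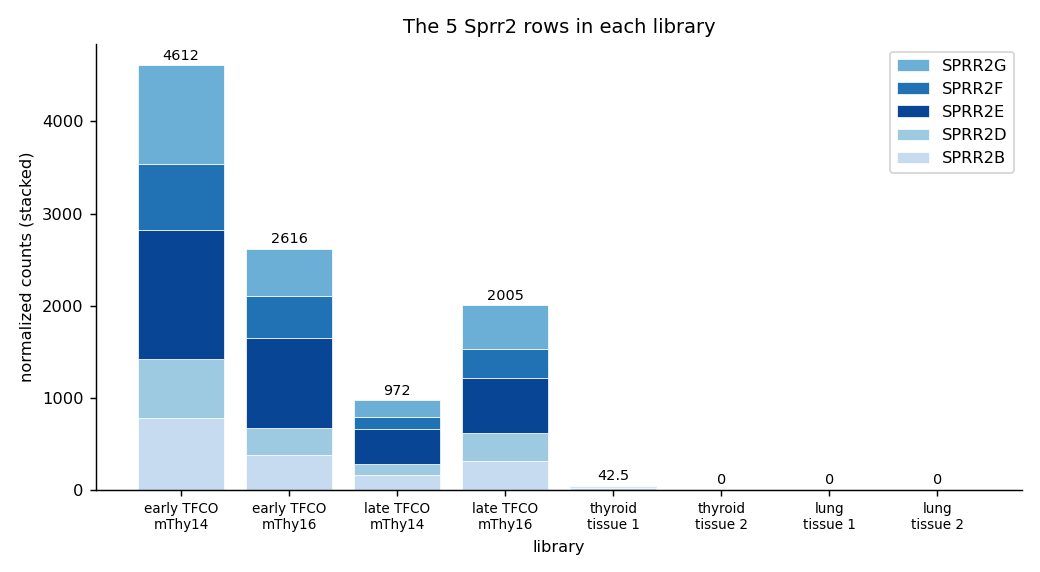
Normalized counts of the 5 Sprr2 rows stacked for each of the 8 libraries, with the sum printed above each bar. The bars of early and late mThy14 are the tallest and the shortest of the TFCO bars, and the proportions of the 5 colours are alike in all 4.

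The sum of squamous epithelial markers ranked the libraries in another order than Sprr2 and Tgm1. Over 13 listed markers (keratins and desmosomal cadherins of stratified epithelia, and the hemidesmosomal collagen Col17a1), the summed level was 2604 and 3257 in early and late mThy14, 9497 and 9200 in early and late mThy16, 3214 in thyroid tissue 1, 127 in thyroid tissue 2, and 179 and 159 in the lungs. All 13 were above 0 in the TFCOs and thyroid tissue 1, whereas 6 were at 0 in thyroid tissue 2, 4 in lung tissue 1 and 7 in lung tissue 2. In mThy16 most of the sum came from Krt6a, Krt6b, Krt5 and Krt4 (2732, 1653, 1485 and 1466 in early TFCOs). In mThy14, Krt1, Krt13, Krt14 and Krt16 stood lower late than early, as Sprr2 and Tgm1 did, and the other listed markers stood higher. Krt5, the basal cell keratin, stood at 228 and 469 in mThy14, 1485 and 1346 in mThy16, 311 in thyroid tissue 1 and 25.8 in thyroid tissue 2. Krt13, a keratin of the upper layers of moist squamous epithelia, stood at 374 and 212 in mThy14, 489 and 562 in mThy16 and 208 in thyroid tissue 1, and was listed at 0 in thyroid tissue 2 and both lungs. Thyroid tissue 1 thus held as much of the summed markers as the mThy14 libraries with a Sprr2 sum of 42.5, and early mThy14, with the highest Sprr2 sum, had the lowest marker sum of the 4 TFCO libraries. Krt1 and Krt10, the keratins of cornifying epidermis, were low, between 21.9 and 106 and between 41.4 and 135 in TFCOs. The part of squamous cells in the levels of the 9 genes was not tested.

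The tissue labels were met by their own markers. The summed level of 8 thyroid follicular markers was between 1555943 and 2223572 in thyroid tissue, between 20912 and 170671 in TFCOs, and at most 2949 in lung, but this sum is mostly Tg, the hormone precursor, at 1526002 and 2175016 in thyroid tissue and between 9532 and 126441 in TFCOs. The other 7 did not all lie on the same side. Slc5a5, the iodide transporter, and Duox2, a peroxide-generating oxidase, were below both thyroid tissues in every TFCO library, whereas Tshr, the TSH receptor, was above both, between 1882 and 8582 in TFCOs against 1287 and 1087 in thyroid tissue. The differences of the transcription factors Pax8 and Nkx2-1 were -0.28 and 0.23 on the log2(value + 1) scale, and 0 of the 8 markers were called. The summed level of 6 airway markers was at least 279306 in lung and at most 6468 elsewhere, and most of the lung sum is Scgb1a1, the club cell secretoglobin. Foxj1, a transcription factor of ciliated cells, made up most of the sum in mThy16, with 6122 and 6016 in early and late libraries, against 1241 and 1020 in lung and 35.1 and 442 in early and late mThy14. Thyroid tissue also held 7 skeletal muscle markers (56324 and 143710 in tissues 1 and 2, at most 2716 in TFCOs) and 6 markers of C cells and parathyroid (50992 and 92418, at most 121 in TFCOs). A list of 7 stromal, endothelial and leukocyte markers summed to at least 21724 in the tissues and to at most 297 in TFCOs. The part of these other cells in the lower levels of thyroid tissue was not tested.

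At late passage the abundant members stood lower than at early passage in both lines, but the size of the drop depended on the line, and no member passed the test. Both late libraries lay below both early libraries for 5 members (Sprr2e, Sprr2f, Sprr2g, Tgm1 and Cnfn), a pattern met by 12.4% of the genes tested. Cnfn rests on 12 and 15 early against 9 and 11 late reads, and the Sprr2 genes are close copies, so these 5 are not independent cases. In mThy14 the early value was 7.12 times the late value for Tgm1, 5.78 times for Sprr2g, 5.41 times for Sprr2f and 3.75 times for Sprr2e. In mThy16 the same ratios were 1.11, 1.08, 1.45 and 1.63. The drop was thus several-fold in 1 line and small in the other. Summed over the 5 Sprr2 rows, the early value was 4.74 times the late value in mThy14 and 1.3 times in mThy16.

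Because the drop was uneven, the order of the lines turned with passage. For early TFCOs, mThy14 held 3.02 times the Tgm1, 2.09 times the Sprr2g, 1.56 times the Sprr2f and 1.45 times the Sprr2e of mThy16. For late TFCOs it held 0.472, 0.391, 0.418 and 0.629 times the values of mThy16. Late mThy14 was the lowest of the 4 TFCO libraries for all 4 genes, and early mThy14 the highest. Among all genes tested, 3.18% fell at least as far as Tgm1 in mThy14, 4.31% at least as far as Sprr2g, 4.5% at least as far as Sprr2f and 7.64% at least as far as Sprr2e. In mThy16 the same shares were 32.2%, 35.9%, 14.1% and 10.7%. With 1 library per line and passage, a change within a line has no replicate.

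Late minus early differences were tested with limma on the log2(value + 1) scale in 1 fit of all genes and libraries. The difference of the 2 group means was -1.49 ± 0.63 (SE) for Tgm1, -1.48 ± 0.94 for Sprr2f, -1.32 ± 0.93 for Sprr2g and -1.30 ± 1.18 for Sprr2e. Adjusted over 14703 genes, p was 1 for all 8 tested members. Called genes numbered 0 of 14703 (0%) and 0 of the 8 members. Tgm1 alone had an unadjusted p under 0.05 with a lower late level, namely 0.0435 (adjusted p = 1, limma), as had 0.857% of all genes tested, and 166 genes passed that mark in either direction. The median difference of the 8 tested members was -0.91, against -0.02 for all genes tested, and this median mixes 4 abundant genes that stood lower with 4 scarce ones that differed by less. For limma's voom on whole reads, chosen after the data were seen, 4 members (Sprr2e, Sprr2f, Sprr2g and Tgm1) had unadjusted p under 0.05 with lower late levels. Of all genes tested 0.483% did so, and again 0 passed the adjustment. The Sprr2 genes are close copies, so these 4 members are not independent cases. The voom fit also takes its error from the tissues, where most Sprr2 values are 0, so these p-values are no measure of the spread between the lines.

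The scarce members gave no common direction by passage. Cnfn was lower at late passage in both lines (-0.52 ± 1.05, SE), Ivl fell to 23.9 from 50.6 in mThy14 and stood at 11.2 after 9.90 in mThy16, and Sprr1b stood higher late than early in mThy14 and lower in mThy16. Sprr1a was nearly level, with 31 to 35 reads in the late and 22 to 41 reads in the early libraries and a difference of 0.0037 ± 1.39 (SE). The error of each gene is pooled over all 4 groups, tissues included, and that of Sprr1a takes in the 2 lung tissues at 18.4 and 0. Likewise, the error of the abundant Sprr2e takes in the 2 thyroid tissues at 10.9 and 0. That of Sprr2g takes in tissue libraries that were all listed at 0 and add no spread.

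**Figure D4:**
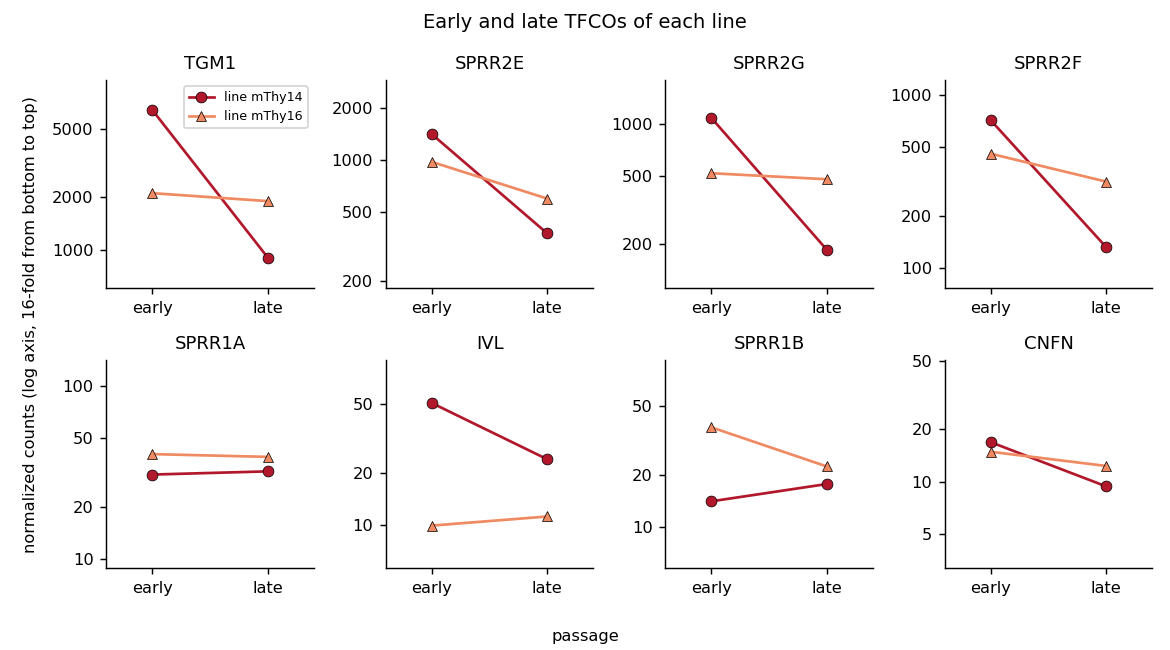
Normalized counts of the 8 tested genes in early and late TFCOs of mThy14 (dark circles) and mThy16 (light triangles), 1 library per point, on log axes that each span 16-fold. The mThy14 lines of Tgm1, Sprr2e, Sprr2g and Sprr2f slope down steeply and cross the flatter mThy16 lines, whereas Sprr1a stays level in both.

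The wider pathway was described with 6 lists of 158 symbols, of which 120 were in the table and 101 were tested: other Sprr genes, envelope precursors, transglutaminases and barrier enzymes, desmosomal genes, S100 genes of the epidermal complex, and transcription factors of squamous differentiation. TFCOs against thyroid tissue called 2 of the 101 as higher and 5 as lower, where 0.599% of all genes tested were called higher and 3.05% lower. The median difference over the 101 genes was 0.36 on the log2(value + 1) scale, against 0.05 over all genes. Against thyroid tissue 1 alone the medians were 0.10 and 0.02. Every TFCO library exceeded both thyroid tissues for 28 of the 101 and lay below both for 21, patterns met by 17.2% and 17.3% of all genes tested. Late against early TFCOs called 0 of the 101, of which 2 had an unadjusted p under 0.05.

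Among the 27 tested transcription factors, 2 rose and 2 fell. The epithelial ETS factor Ehf stood at 1883 and 9155 in early and late mThy14, at 4729 and 4963 in mThy16, and at 183 and 455 in thyroid tissue (log2 difference 3.95 ± 0.52, adjusted p = 0.0119, limma). Elf5, its relative in glandular epithelia, stood at 2519 and 2678 in mThy14, 672 and 656 in mThy16, and 125 and 96.8 in thyroid tissue (3.56 ± 0.68, adjusted p = 0.0394, limma). All TFCO values of both genes lay above all tissue values, lung included. Gata3, a factor of epidermal and parathyroid cells, fell, with 3.12 to 21.1 in TFCOs against 324 and 117 in thyroid tissue (-4.33 ± 0.79, adjusted p = 0.0341, limma). Fosb, an immediate-early AP-1 subunit, also fell, with 88.5 to 125.9 in TFCOs against 708 and 911 (-2.83 ± 0.44, adjusted p = 0.0201, limma). When the lung libraries were left out of the fit, 1 of the 7 calls in the lists was made, that of Ehf, and without thyroid tissue 1 the lists held 41 calls.

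Of the 30 tested transglutaminases and barrier enzymes, 0 rose and 1 fell. The gene that fell was F13a1, the coagulation factor XIII subunit made by macrophages and platelets, with at most 3.35 in TFCOs against 131 and 366 in thyroid tissue (-6.77 ± 0.83, adjusted p = 0.0096, limma). Of 11 tested S100 genes, 0 rose and 2 fell, S100a5 (0 in all TFCOs, 119 and 59.0 in thyroid tissue, adjusted p = 0.0175, limma) and S100a16 (90.6 to 274 against 630 and 1195, adjusted p = 0.0402, limma). The S100 list had the lowest median of the 6, -2.69. Of the marker lists of cells found in tissue, 6 of 7 muscle, 4 of 6 C cell and parathyroid and 5 of 7 stromal, endothelial and leukocyte genes were also called lower in TFCOs.

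Envelope precursors (18 tested) and desmosomal genes (12 tested) held 0 calls in either direction. Their medians were 1.36 and 0.21. The precursor with the largest difference was Lce1e, a late envelope protein of the outer epidermis, at 12.6 and 1.04 in early and late mThy14, 60.4 and 36.9 in mThy16 and 0 in all tissues (4.0 ± 1.25, adjusted p = 0.152, limma). Next was Cst6, a protease inhibitor of cornifying epithelium, at 70.3 and 2.08 in mThy14, 15.8 and 7.83 in mThy16, and 120 and 325 in thyroid tissue (-3.88 ± 1.09, adjusted p = 0.119, limma). Among desmosomal cadherins, Dsc1 of the upper epidermis was at most 1.12 in TFCOs against 30.5 and 17.5 in thyroid tissue (-4.32 ± 0.96, adjusted p = 0.0610, limma), and Dsc3 of basal layers was between 6.93 and 16.7 in TFCOs against 4.35 and 0.922 (1.95 ± 1.03, adjusted p = 0.351, limma). For the other Sprr genes, Sprr2b and Sprr2d, the differences were 6.34 ± 1.43 (adjusted p = 0.0636, limma) and 6.28 ± 1.35 (adjusted p = 0.0558, limma). The lists were chosen with these samples already described, and these counts are no independent evidence of a direction.

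**Figure D5:**
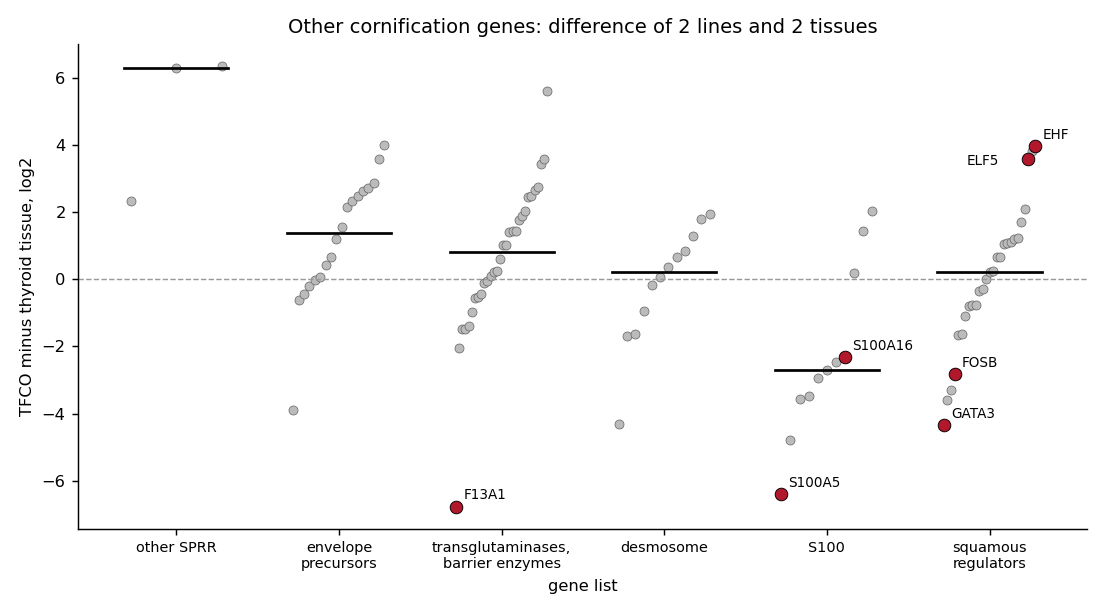
Difference between 2 TFCO lines and 2 thyroid tissues on the log2(value + 1) scale for the 101 tested genes of the 6 lists, 1 point per gene, with called genes in red and a black bar at each list's median. The points of most lists lie on both sides of 0, and the 7 called genes are Ehf and Elf5 above it and F13a1, S100a5, S100a16, Fosb and Gata3 below it.

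The genes whose pattern was most like that of the 8 tested members were searched among 11954 genes by Pearson's r with the members' mean centred log2 level over the 8 libraries. The 6 leading genes were Ergic1 (r = 0.993), Kng1 (0.992), Trpv1 (0.991), Supt7l (0.987), Nr2f6 (0.987) and Fzd3 (0.986). All 6 were higher in each of the 4 TFCO libraries than in each of the 4 tissue libraries, the contrast that also dominates the members. Kng1, the precursor of bradykinin, was read at 977 and 147 in early and late mThy14, 290 and 348 in mThy16, 7.62 in thyroid tissue 1 and at most 0.838 in the other tissues. Like Tgm1 it was highest in early and lowest in late mThy14 among the TFCOs.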

How the data were processed

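Bulk mRNA of 8 mouse libraries was analysed. The authors deposited 1 table of normalized counts (a signal: reads per gene over a library size factor). The methods of the authors name DESeq2, a stranded polyA kit and mapping to the mouse genome. The labels describe an adapted CEL-Seq protocol. The submitters' processing notes name BWA 0.6.2-r126, hg38 and mm10. Counter and annotation are not given in the sources used here. All values above 0 were whole multiples of 1 step per library (tolerance 0.01 reads).

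The log2(value + 1) of each gene was fitted with limma 3.58.1 (R 4.3.3; mean-variance trend, Benjamini-Hochberg) for the 14703 genes reaching 10 in 2 or more libraries. Called means adjusted p under 0.05. Passage was tested in 1 fit of 4 groups; for TFCOs against thyroid tissue each line entered as the mean of its passages. Where tissue samples are not separate animals, p-values measure only the spread between these samples. Early and late libraries share their line, and line differences correlated between passages (r = 0.477 across 14703 genes). Members and lists were chosen with earlier results of these data known. Named genes were all members, up to 3 called rises and 3 falls per list (2 largest differences where none was called), markers, and the 6 most similar genes. Scripts were tested on simulated data. Alternatives were the pseudocount, filter, normalization, line block and each library left out. Symbols of 15883 genes matched GENCODE M21. Promoters were from RefSeq.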

Additional observations from a re-analysis of the deposited data

Results flagged for a closer look

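The members Sprr1a, Sprr1b, Sprr3 and Ivl moved in opposite directions with passage in the 2 lines, and the differences below are the mThy14 change minus the mThy16 change on the log2(value + 1) scale. With 1 library per line and passage, that opposite direction itself has no replicate. For Sprr1a the difference was 0.11, from 22 and 31 reads in early and late mThy14 and 41 and 35 in mThy16. For Sprr1b it was 1.04, for Ivl -1.21 and for Sprr3 -5.57. No test with organoid replicates was possible. A fit added after the data were seen took its spread from the 4 tissue libraries alone, which holds no replicate error of the organoid lines, so its result is not used and says nothing about whether these differences are stable. The value of Sprr3 rests on 8 and 0 reads in early and late mThy14 and on 1 and 6 in mThy16.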

How the results depend on the processing

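Late against early TFCOs called 0 members and 0 list genes under every alternative run. Over all genes the count was 0 except when 1 library was left out: 0 to 2 genes, with 2 called without late mThy16. A fit with a replicate block for line called 0 genes (224 at an unadjusted p under 0.05, against 166), and the block changed no call. With voom the number at an unadjusted p under 0.05 was 84. The sign of the passage difference turned for Sprr1a to -0.19 and -0.13 without early mThy14 and without late mThy16 and to -0.019 with voom; with 1 library left out it ran from -0.19 to 0.19. It turned for Sprr1b to 0.22 with quantile normalization and to 0.47 without early mThy16 (range -0.89 to 0.47), and for Ivl to 0.68 and 0.07 without early mThy14 and without late mThy16 (range -1.57 to 0.68). Cnfn exceeded thyroid tissue on average but its difference from thyroid tissue 1 was -0.21.

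TFCOs against thyroid tissue called 536 genes, 124 without the lung libraries, and 161 to 4085 when 1 library was left out. The lowest of these came without thyroid tissue 2 and the highest, 4085, without thyroid tissue 1; the cause was not tested. For the lists the 7 calls became 1 without the lung libraries and 5 to 41 when 1 library was left out, with 41 again without thyroid tissue 1. S100a16 lost its call under 7 alternatives. edgeR and DESeq2 were not run; voom on whole reads, added later, is a count-based alternative. Sprr3, with at most 8 reads in a library, was too scarce to enter the fit.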

Other observations

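The following genes of the lists were chosen after their values were seen, and no test is drawn from them. Klk14, a protease of the cornified layer, stood at 313 and 101 in early and late mThy14, 32.7 and 21.2 in mThy16, 1.09 and 0 in thyroid tissue, and 36.9 and 20.2 in lung. Like Ivl, it was higher in mThy14 than in mThy16 at both passages. Anxa1, a membrane protein also found in cornified envelopes, ran the other way, with 3723 and 2214 in mThy14, 9130 and 10454 in mThy16 and 807 and 1394 in thyroid tissue. Lipk, an epidermal lipase, was highest in late mThy14, at 1122, against 226 in early mThy14, 93.1 and 139 in mThy16 and at most 24.9 in thyroid tissue.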
